A study of Mus musculus with 28 samples.

Results

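The response of wild-type (WT) mouse embryonic fibroblasts (MEFs) to doxorubicin (Doxo) was read from 6 of the 28 arrays of the series, chosen by their labels: 2 arrays of WT MEFs that received 0.25 µg/ml of Doxo for 4 h, and 4 arrays of untreated WT MEFs. All 45037 probe sets were kept, and none was chosen by its value. The replicates are named Doxo replicate 1 and 2 and untreated replicate 1 to 4, and they do not pair the groups. The cells of every group were at passage 2 and came from embryos of 13.5 days, labelled as C57Bl/6 whereas the methods name sv129 mice, and according to the methods the 4 preparations were independent. For comparison, MEFs without the redox protein p66 (p66-/-) had 2 Doxo arrays and 4 untreated arrays at the same dose and time, and WT MEFs exposed to 400 µM H2O2 for 4 h had 4 arrays. The 4 arrays of p66-/- MEFs given 400 µM H2O2 for 4 h entered only the estimate of spread and the check of array sets below. The arrays of p53-/- MEFs, untreated or given H2O2, were used in the same way. None of the p53-/- cells received Doxo. Values are RMA signals on the log2 scale, where a difference of 1 is a doubling. The terms "rose" and "fell" are kept for changes with an adjusted p under 0.05 (limma, Benjamini-Hochberg over all probe sets). With 2 arrays against 4, an exact two-sided permutation test cannot go below p = 0.067, so that the calls rest on the spread estimated over all 28 arrays.

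Doxorubicin is an anthracycline used in chemotherapy that slides between DNA bases and holds topoisomerase II on the strands it has cut. The breaks that follow activate the ATM kinase and stabilise p53, which switches on genes for cell-cycle arrest, cell death and DNA repair. The drug also displaces histones and interferes with transcription.

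Doxo and a difference between array sets cannot be told apart. Signals of the lys control RNA, an external transcript added to each sample, divided the arrays into 3 sets. They averaged 4.18 ± 0.13 in the 4 Doxo arrays (SD, 2 arrays of each genotype), against 5.15 ± 0.26 in replicates 1 and 2 of the other groups and 3.56 ± 0.27 in replicates 3 and 4 (SD, n = 12 arrays each). The bioB hybridisation control gave 7.99 ± 0.13 in Doxo arrays, above 6.68 ± 0.31 and 7.32 ± 0.15 in those sets. No untreated array shares the Doxo set. The size of such a difference could be read where Doxo played no part, as replicates 3 and 4 minus replicates 1 and 2 of untreated p66-/- MEFs, called the replicate-set difference below. Across the 45037 probe sets it ran along with the Doxo change in WT (Pearson r = 0.73, a description without a p, as probe sets are not independent), and r was 0.70 in untreated p53-/- MEFs and 0.55 to 0.69 in the 3 H2O2 groups. In untreated WT MEFs, whose arrays also enter the Doxo change, r was 0.41. Of the probe sets that fell, 85.6% were lower in replicates 3 and 4 of untreated p66-/- MEFs, against 40.8% of all probe sets, and in untreated WT MEFs, the lowest of the 6 groups, 67.1% of them were. The median replicate-set difference of those that fell was -0.44 in untreated p66-/- and -0.14 in untreated WT MEFs, whereas their median Doxo change was -1.36. For 95.7% of the fallen and 90.9% of the risen probe sets, against 42.3% of all, the Doxo change exceeded the replicate-set difference in every one of the 6 untreated and H2O2 groups. The calls were themselves made against a spread that contains these differences, so that the high shares were largely set by that selection. They do not measure how far the Doxo set lay from the other sets. Of the 208 genes called among the 237 named in the text, Sestd1, Dglucy, Mcm5, Irf7, Psmb8, Bop1, Ubtf, Gusb, Csf1r and Bmf changed by no more than the largest of these differences. A transcript of the Y chromosome, Eif2s3y, differed as well at 1 of its 2 probe sets, while the other changed by 0.007 without a call. The Y-linked genes Kdm5d and Uty were not called at their brightest probe sets. Eif2s3y measured 3.71 and 3.60 in Doxo arrays, against 8.04, 7.62, 7.14 and 5.75 in untreated arrays, while Xist, the X-linked RNA of female cells, measured 7.75 and 8.85 in Doxo arrays, against 9.25, 9.57, 8.66 and 9.76 in untreated arrays. Both Doxo arrays were thus low in the Y-linked transcript, untreated replicate 4 was the lowest of the untreated arrays, and the part of the sex of the embryos was not tested. The 3′ minus 5′ signal of the actin control, a measure of RNA integrity, was 0.175 ± 0.025 in Doxo arrays and 0.218 ± 0.041 in untreated arrays (SD).

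Under Doxo 9875 of 45037 probe sets rose (21.9%) and 5877 fell (13.0%). Calls of either direction made up 35.0% of the probe sets, and both Doxo arrays lay above all untreated arrays for 39.2% and below them for 19.5%. At the thresholds of the study, a change of 1.5-fold with an unadjusted p under 0.05, 4321 passed upwards (9.59%) and 5804 downwards (12.9%). The falls were the deeper changes. A fall of at least 4-fold was seen for 1556 probe sets and a rise of that size for 57. The median change was -1.36 on the log2 scale for those that fell and 0.51 for those that rose. Falls depended on signal level. With an untreated signal up to 3, 0.134% of 5951 probe sets fell, and from 3 to 4, 0.982% of 12829. From 9 to 10 the share was 40.1% of 1515. The part of signal level in the depth of the falls was not tested. Before treatment the risen probe sets had a median signal of 4.57, near the 4.39 of all, whereas the fallen were brighter, at 7.38. Counted per gene at the probe set with the highest mean signal, 4627 of 17097 genes rose (27.1%) and 2729 fell (16.0%), together 43.0%. These shares are the background for all counts of genes given here. Both Doxo arrays lay above all untreated arrays in 45.1% of genes and below them in 20.6%. The median change of all genes was 0.19, and that of all probe sets 0.13. Centring every array on its median lowered the median change of all probe sets to 0.02 and left 5418 rises and 6649 falls, so that rises made up 44.9% of the calls instead of 62.7%. Without Doxo replicate 2, 3635 probe sets rose and 3486 fell, and the single remaining Doxo array was then assumed to vary like the other groups.

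Ptgs2, which encodes the inducible cyclooxygenase that starts prostaglandin synthesis, showed the deepest fall of a named gene. Its signal was 5.77 and 5.46 in Doxo arrays, against 11.63, 9.86, 11.08 and 10.75 in untreated arrays, a 37.1-fold decrease (limma, adjusted p = 1.3e-04). Ankrd1, a cardiac and stress-induced ankyrin protein and a classical target of the growth coactivator YAP, read 5.66 and 4.40 in Doxo arrays, against 9.81, 8.02, 10.51 and 9.47 in untreated arrays. In Nfkbiz, an atypical IκB protein of the nucleus, the values were 4.69 and 3.98 in Doxo arrays, against 9.18, 8.32, 8.40 and 8.21 in untreated arrays. In these 3 genes the Doxo arrays lay more than 2 log2 units below every untreated array. Mir100hg, the host transcript of a microRNA cluster, fell by 4.77 (SE 0.66), to 4.16 and 3.57 in Doxo arrays, against 8.89, 8.53, 8.66 and 8.46 in untreated arrays. Ube2v2, a partner of the ubiquitin-conjugating enzyme for K63 chains in DNA damage tolerance, fell by 4.49, and Cops2, a subunit of the COP9 signalosome, by 4.23. Tasor2 fell by 4.46, Depdc1a by 4.23, Acsl4, an enzyme that activates arachidonic acid, by 4.18, and Rock1, a kinase of the actin cytoskeleton, by 4.18. Rock1 gave 4.44 and 4.33 in Doxo arrays, against 9.37, 8.82, 8.27 and 7.83 in untreated arrays. In untreated p66-/- MEFs its replicate-set difference was -2.06, while those of Ptgs2 and Mir100hg were -1.75 and -1.13. The same differences in untreated p53-/- MEFs were larger, at -3.085 for Rock1, -3.165 for Ptgs2 and -2.454 for Mir100hg. In untreated WT MEFs they were -1.05, 0.169 and -0.152.

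The largest rises started from dim signals. The gene 1700007K13Rik measured 7.56 and 7.18 in Doxo arrays, against 3.79, 3.87, 3.94 and 3.44 in untreated arrays, a change of 3.61 (limma, adjusted p = 5.8e-06). Ddit4l, a relative of the mTOR inhibitor REDD1, measured 9.19 and 9.37 in Doxo arrays, against 5.22, 6.45, 5.55 and 5.74 in untreated arrays. Psmb9, the immunoproteasome subunit that trims antigens for MHC class I, was at 8.24 and 8.25 in Doxo arrays, against 5.07, 5.12, 5.09 and 5.44 in untreated arrays. The Doxo pair lay close together and well above all untreated arrays in each of these genes. Usp18, which removes the ubiquitin-like protein ISG15 and dampens interferon signalling, was more scattered, with 7.46 and 8.42 in Doxo arrays, against 3.72, 4.0, 4.60 and 5.94 in untreated arrays (change 3.38, limma, adjusted p = 0.014). Icam1, an adhesion molecule for leukocytes, rose by 2.91, Mab21l3 by 2.95, Iffo1 by 2.83, Acaa1b, a peroxisomal thiolase, by 2.66, Vnn1, the pantetheinase vanin, by 2.65, and the stress kinase Mapkapk3 by 2.61. Mapkapk3 differed between the untreated replicates, at 5.88, 5.61, 7.50 and 7.54. Rock1, Usp18 and Mapkapk3 lost their calls without Doxo replicate 2.

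**Figure D1:**
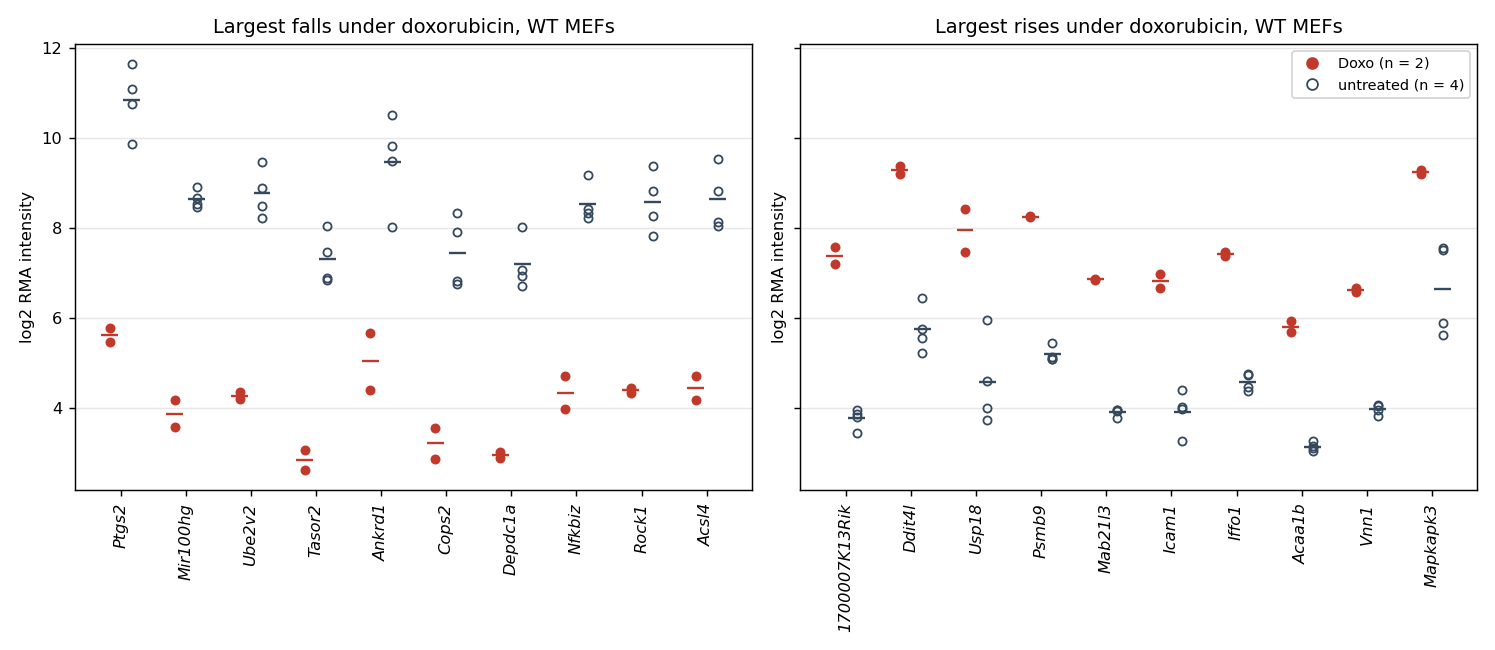
Log2 RMA signal (y axis) on each array for the 10 genes with the largest falls (left) and the 10 with the largest rises (right) under Doxo in WT MEFs. Filled points are the 2 Doxo arrays, open points the 4 untreated arrays and lines the group means. In all 20 genes both Doxo arrays lie beyond all untreated arrays, for Ptgs2 at 5.77 and 5.46 against 9.86 or more.

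Targets of p53 were followed by role. p53 halts the cycle through the CDK inhibitor p21 and through Btg2 and Rprm, kills through BH3-only proteins and death receptors, and is itself held in check by the products of Mdm2, Ppm1d and other targets. Of 41 measured p53 targets, 15 rose, 5 fell and 21 did not pass the test, with a median change of 0.11. Their share of rises thus stood above the 27.1% of all genes, while the share of falls was below the 16.0% of all genes, on a list chosen with earlier results known. Their median change, however, lay below the 0.19 of all genes. The replicate-set difference of the 9 arrest genes had a median of 0.02, and that of the 12 death genes 0.19. The same difference in untreated p53-/- MEFs had medians of -0.277 and 0.074.

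Cdkn1a, which encodes p21, measured 12.05 and 11.94 in Doxo arrays, against 10.52, 10.37, 10.75 and 10.32 in untreated arrays. It rose by 1.5 (SE 0.26, limma, adjusted p = 1.7e-04), with no overlap between the groups. Rprm, the reprimo gene of G2 arrest, measured 7.50 and 7.28 in Doxo arrays, against 5.27, 4.91, 5.60 and 5.31 in untreated arrays, and its rise of 2.12 was the steepest of the p53 targets (limma, adjusted p = 3.9e-06). Btg2, an antiproliferative factor that promotes mRNA deadenylation, was 9.86 and 9.65 in Doxo arrays, against 8.04, 7.60, 8.11 and 8.24 in untreated arrays. Gtse1, a mitotic protein that binds p53, rose by 1.35. Ccng1, which encodes cyclin G1, went the other way, with 9.93 and 9.68 in Doxo arrays, against 11.38, 11.00, 11.05 and 10.57 in untreated arrays, as did the polo-like kinase gene Plk2, with 9.59 and 9.27 in Doxo arrays, against 10.71, 10.10, 10.24 and 10.11 in untreated arrays. Both fell (limma, adjusted p = 0.024 and 0.025). Ccng1 and Plk2 lost their calls without Doxo replicate 1 or 2 or untreated replicate 1. For Gadd45a, a classical stress gene, the groups overlapped (change -0.05, 95% interval -0.83 to 0.73).

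Among the death genes 6 of 12 rose and 0 fell in limma (1 at an unadjusted p under 0.05 and 0 by the t-test of the methods). Bbc3, which encodes the BH3-only protein PUMA, gave 7.71 and 7.74 in Doxo arrays, against 6.25, 6.67, 5.92 and 6.48 in untreated arrays (limma, adjusted p = 9.3e-04). Ei24, a gene of the endoplasmic reticulum membrane induced by etoposide, gave 10.51 and 10.51 in Doxo arrays, against 9.32, 8.91, 9.47 and 9.33 in untreated arrays. Pidd1, which assembles the caspase-2 platform, rose by 1.22, and Phlda3, a repressor of Akt, by 0.87. The death receptor gene Fas had 6.12 and 6.64 in Doxo arrays, against 4.30, 5.10, 5.31 and 5.29 in untreated arrays, and Aen, an apoptosis-enhancing nuclease, rose by 0.65. Fas lost the call without Doxo replicate 1 or 2 or untreated replicate 1, while Aen did so without Doxo replicate 1 or 2 or untreated replicate 2. Pmaip1, which encodes NOXA, gave 7.99 and 7.27 in Doxo arrays, against 8.18, 5.80, 8.83 and 7.54 in untreated arrays, and its change was 0.04 (95% interval -1.71 to 1.79).

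The feedback genes moved in both directions. Ppm1d, the phosphatase WIP1 that resets ATM and p53, rose, with 7.47 and 6.88 in Doxo arrays, against 6.27, 6.24, 6.42 and 6.52 in untreated arrays. Mdm4, which encodes the MDMX inhibitor of p53, read 4.93 and 5.24 in Doxo arrays, against 6.60, 6.77, 6.46 and 6.49 in untreated arrays and fell by 1.5 (limma, adjusted p = 0.0021). Trim24, a ubiquitin ligase for p53, fell by 1.43. For Mdm2, the main ubiquitin ligase for p53, the values were 8.26 and 7.83 in Doxo arrays, against 8.69, 8.38, 8.80 and 8.39 in untreated arrays, and its change of -0.52 did not pass (95% interval -1.27 to 0.22). The median over the 6 feedback genes was -0.34. Among 14 targets with roles in repair, metabolism and mTOR control, 4 rose and 1 fell. Sesn2, which restrains mTORC1, was at 7.61 and 7.74 in Doxo arrays, against 6.41, 6.67, 6.01 and 6.57 in untreated arrays. The repair gene Xpc, which finds helix distortions, rose by 0.81, Psrc1 by 0.97 and the mitochondrial enzyme gene Dglucy by 1.07, whereas Sestd1 fell by 0.75. Ppm1d lost the call without Doxo replicate 1, while Psrc1 did so without Doxo replicate 1 or 2. Dglucy and Sestd1 lost their calls without Doxo replicate 1 or 2 or untreated replicate 1 or 2. Among arrest genes 4 rose and 0 fell without Doxo replicate 2, among death genes 4 rose and 0 fell, and among repair and metabolism genes 2 rose and 0 fell.

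**Figure D2:**
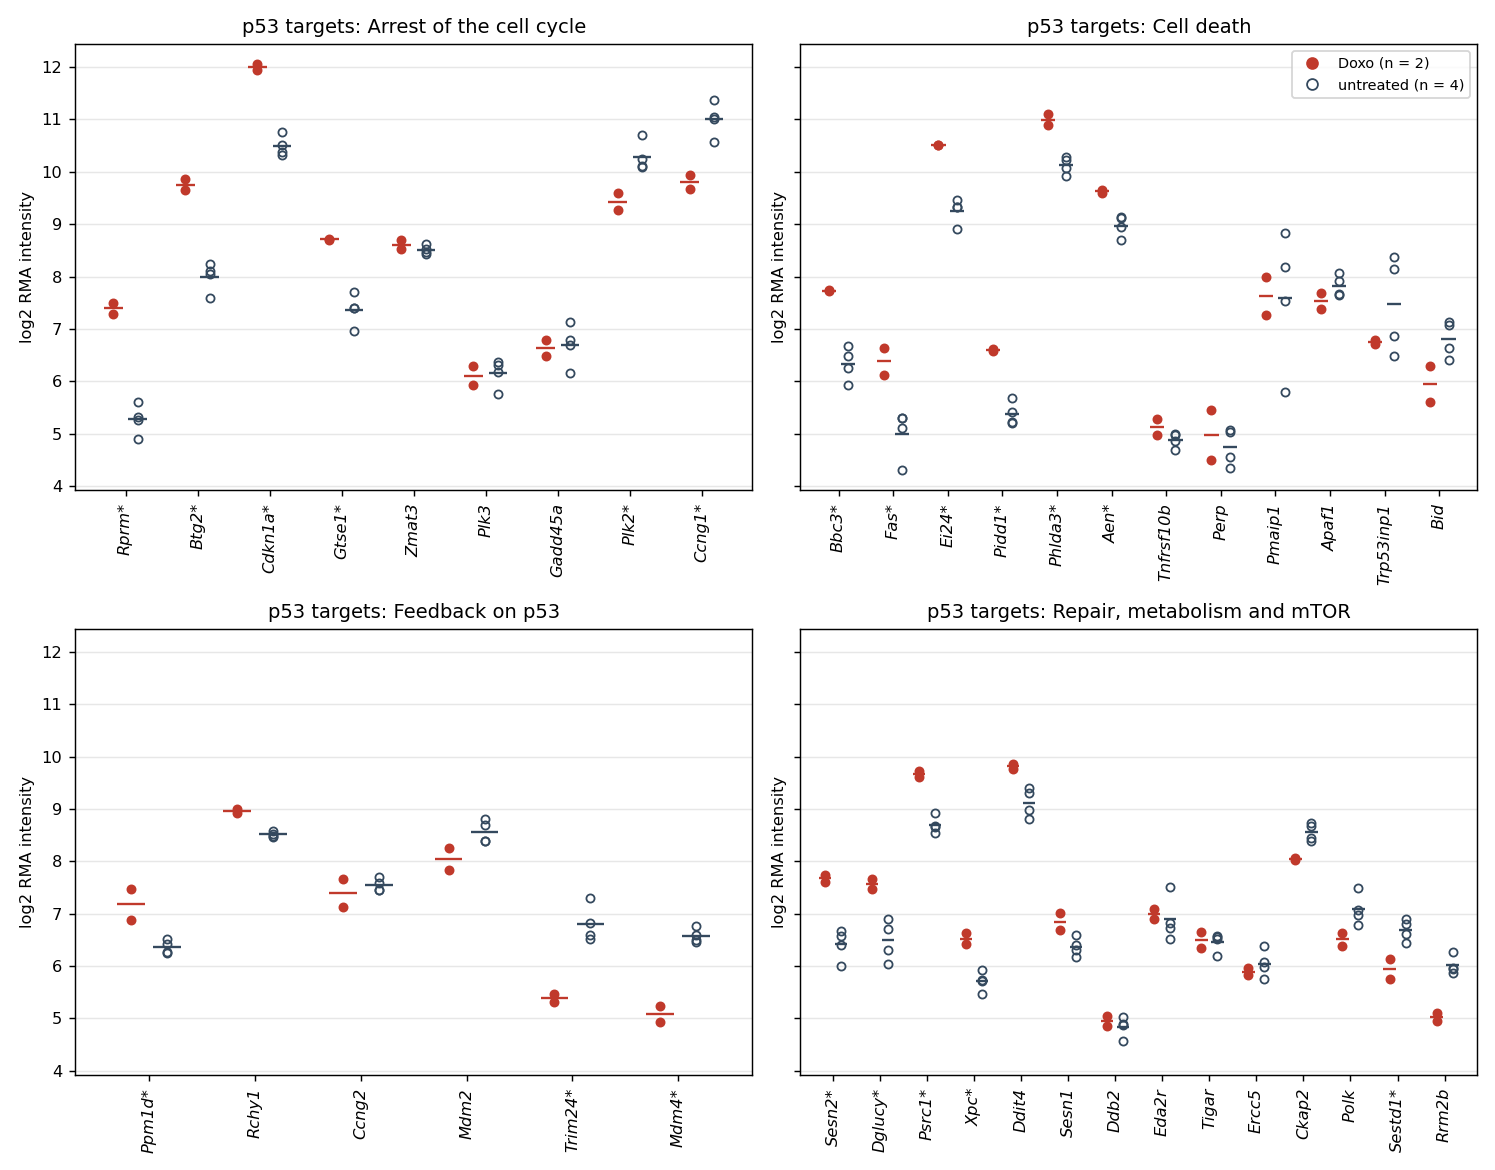
Log2 RMA signal (y axis) of the 41 measured p53 targets in WT MEFs, by role and ordered by the size of the change. Filled points are the 2 Doxo arrays, open points the 4 untreated arrays, lines are means, and an asterisk marks genes that rose or fell. Rprm, Btg2 and Cdkn1a stand apart in both Doxo arrays, and Mdm4, Trim24, Ccng1 and Plk2 lie below all untreated arrays.

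G2 and mitotic genes serve chromosome condensation, the spindle, the spindle checkpoint and cytokinesis, and are driven by NF-Y, B-Myb and FoxM1 through CCAAT boxes and CHR elements. Of 45 measured genes, 18 fell, 1 rose and 26 did not pass, and 0 rose and 15 fell without Doxo replicate 2. The median change was -0.22, and the replicate-set difference of the same genes had a median of 0.68 (Smc2 -1.06, Bub1 -0.27). Its counterpart in untreated p53-/- MEFs had a median of 0.147.

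Condensin genes and Bub1 showed the 3 deepest falls of the list. Smc2, the ATPase common to both condensins, measured 5.08 and 5.08 in Doxo arrays, against 9.36, 8.86, 8.57 and 8.41 in untreated arrays, and its partner Smc4 measured 5.56 and 5.99 in Doxo arrays, against 9.68, 9.42, 8.82 and 8.60 in untreated arrays. For the spindle checkpoint kinase Bub1 the signals were 4.30 and 4.44 in Doxo arrays, against 8.34, 8.07, 7.79 and 7.77 in untreated arrays (limma, adjusted p = 5.2e-06). The Doxo arrays of Bub1 and Smc2 lay more than 3 log2 units below every untreated array at these probe sets. The other Bub1 probe set changed by -0.26 without a call, and 1 of the 4 Smc2 probe sets fell. Anln and Ect2, which organise the cytokinetic ring, fell by 1.85 and 2.27, and Plk4, the kinase that starts centriole duplication, by 2.47. Top2a, the proliferative topoisomerase II and the protein that Doxo traps, read 7.79 and 7.36 in Doxo arrays, against 9.23, 9.24, 9.31 and 9.19 in untreated arrays at its brightest probe set (limma, adjusted p = 3.5e-06), while another of its 3 probe sets rose by 0.63. Genes at the core of mitotic entry did not pass. Ccnb2, which encodes cyclin B2, had 8.92 and 8.92 in Doxo arrays, against 8.83, 8.98, 9.09 and 9.15 in untreated arrays. Its change was -0.10 (95% interval -0.77 to 0.58), and the corresponding changes were -0.05 for Plk1 (-0.86 to 0.76), -0.04 for Aurka (-0.91 to 0.83) and -0.27 for Cdk1 (-0.91 to 0.37). Mad1l1, a checkpoint gene, rose by 0.71. Mad1l1 lost the call without Doxo replicate 2.

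The promoters of Bub1, which fell, and of Ccnb2, which did not pass, are shown to compare their CCAAT boxes, the letters bound by NF-Y. Each runs 5′ to 3′ from 250 bases before the start site to 50 after it, on the minus strand of the RefSeq GRCm38.p6 assembly (Bub1 chr2:127831810-127832109, Ccnb2 chr9:70421505-70421804), and the capitals mark CCAAT or its reverse complement ATTGG.
Bub1: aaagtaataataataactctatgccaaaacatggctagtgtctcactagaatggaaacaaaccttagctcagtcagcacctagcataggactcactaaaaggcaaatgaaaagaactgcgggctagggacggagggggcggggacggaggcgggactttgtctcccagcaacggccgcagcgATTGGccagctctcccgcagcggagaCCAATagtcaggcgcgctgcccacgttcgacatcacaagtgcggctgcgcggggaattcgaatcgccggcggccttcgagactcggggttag
Ccnb2: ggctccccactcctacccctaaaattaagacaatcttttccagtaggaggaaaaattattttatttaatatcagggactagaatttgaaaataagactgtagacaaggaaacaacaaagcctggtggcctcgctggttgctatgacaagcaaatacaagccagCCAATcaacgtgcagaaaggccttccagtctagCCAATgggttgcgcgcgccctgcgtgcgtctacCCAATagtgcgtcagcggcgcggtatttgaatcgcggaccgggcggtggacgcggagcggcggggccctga
Bub1 held 2 matches and Ccnb2 held 3. CCAAT on either strand was found in 37.4% of all 32851 promoters of this length. It was present in 12 of 16 promoters of the G2 and mitotic genes that fell, and in 16 of 20 of those that rose or did not pass, so that 75% and 80% held it.

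Of 36 measured G1-S and replication genes, 3 rose and 6 fell, against shares of 27.1% and 16.0% in all genes, with a median change of 0.30. Without Doxo replicate 2, 0 rose and 4 fell. Ccne2, which encodes the S-phase cyclin E2, had 3.53 and 3.86 in Doxo arrays, against 7.63, 6.79, 7.30 and 6.97 in untreated arrays. Dbf4 and Cdc7, the kinase pair that fires replication origins, fell by 2.36 and 2.33, Skp2, the ligase for p27, by 1.45, and the primase partner Pola1 by 2.16. Another probe set of Dbf4 rose by 0.44. E2f1, the S-phase transcription factor, rose by 0.82, and the helicase subunits Mcm7 and Mcm5 rose by 1.04 and 0.91, and all 3 rises were lost with single libraries. Pola1 and E2f1 lost their calls without Doxo replicate 2, while Mcm7 did so without Doxo replicate 1 or 2. Mcm5 lost the call without Doxo replicate 2 or untreated replicate 1 or 2. Ccnd1, encoding cyclin D1, changed by -0.19 (95% interval -0.73 to 0.36) and Pcna by -0.21 (-0.61 to 0.20).

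**Figure D3:**
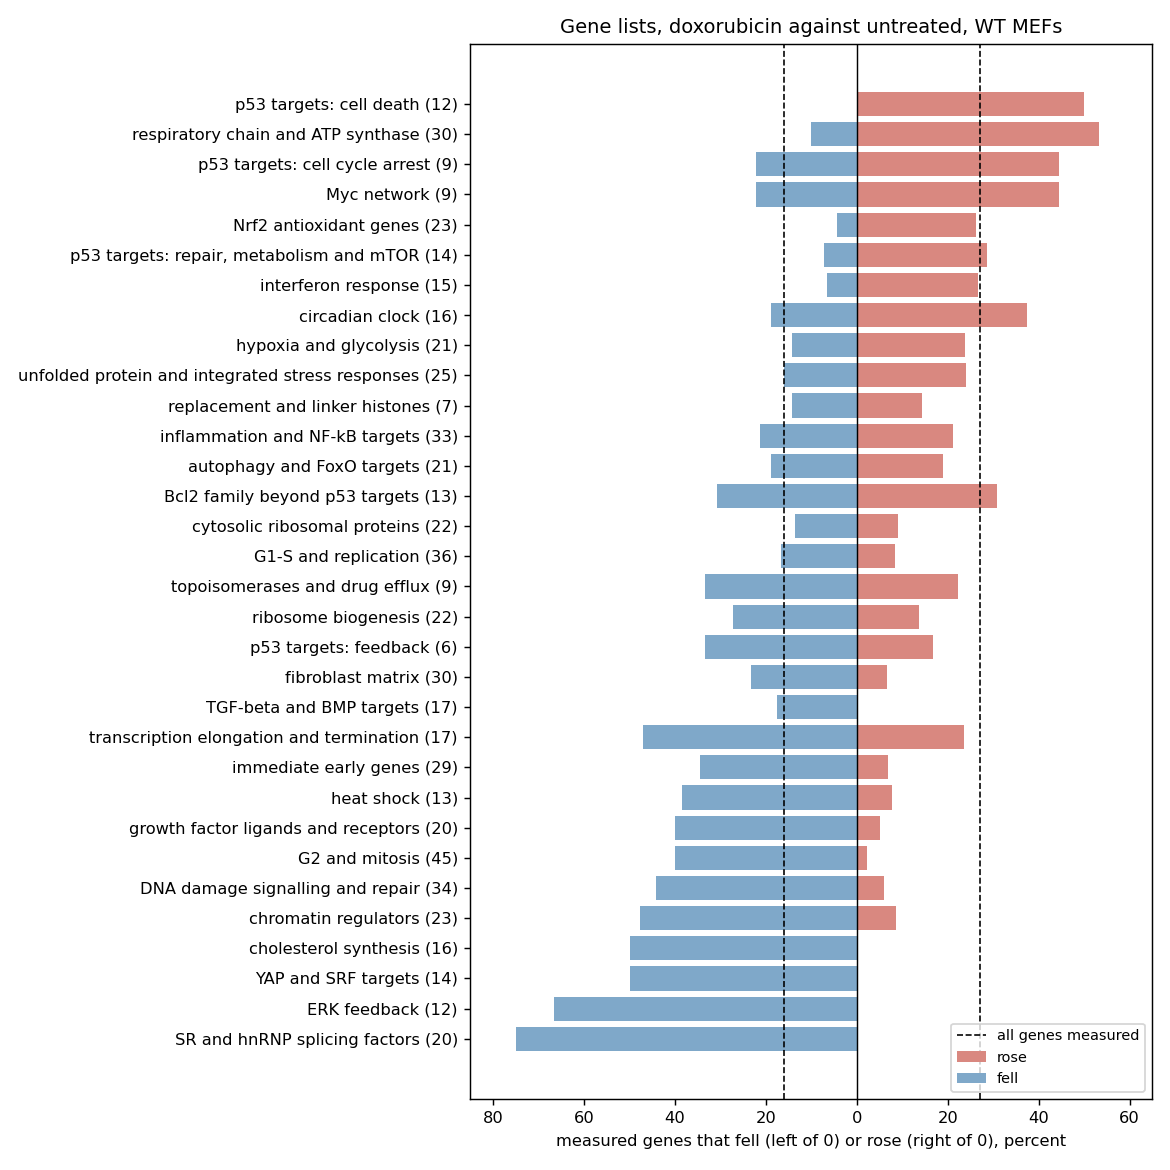
Percent of the measured genes of each list that rose (right of 0) or fell (left of 0) under Doxo in WT MEFs, with the number measured in brackets. Dashed lines mark 27.1% and 16.0%, the shares over all 17097 genes. SR and hnRNP splicing factors (75% fell) and ERK feedback genes (66.7% fell) lie at the lower end, death targets of p53 and the respiratory chain (53.3% rose) at the upper end.

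Growth-factor signals reach the nucleus through ERK, which induces immediate early genes such as Fos, Egr1 and Jun and, in turn, its own inhibitors of the Sprouty, Spred and DUSP families. Of 12 ERK feedback genes, 8 fell and 0 rose in limma (1 at an unadjusted p under 0.05 and 0 by the t-test of the methods), and 0 rose and 7 fell without Doxo replicate 2. They had a median change of -1.73 and a median replicate-set difference of -0.13. In untreated p53-/- MEFs the median of the same difference was -0.645. Spred1 measured 5.49 and 4.91 in Doxo arrays, against 8.35, 8.40, 7.90 and 8.03 in untreated arrays (limma, adjusted p = 8.5e-07). Spry2 measured 4.53 and 4.85 in Doxo arrays, against 7.78, 7.41, 7.83 and 8.04 in untreated arrays. Spry4 was at 3.94 and 4.37 in Doxo arrays, against 8.32, 6.24, 7.67 and 8.02 in untreated arrays, and the ERK phosphatase gene Dusp6 at 5.75 and 5.64 in Doxo arrays, against 8.70, 7.57, 8.84 and 9.04 in untreated arrays. In all 4 genes the Doxo arrays lay below every untreated array, and untreated replicate 2 was the lowest untreated array in Spry2, Spry4 and Dusp6. Spred2 fell by 1.95, although another of its probe sets rose by 0.33, and Spry1 fell by 1.5.

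Of 29 immediate early genes, 10 fell and 2 rose, and 2 rose and 7 fell without Doxo replicate 2, with a median of -0.44. Klf6, a zinc-finger factor, was 6.25 and 5.81 in Doxo arrays, against 9.58, 9.19, 9.48 and 9.29 in untreated arrays (limma, adjusted p = 3.6e-06). Ier3 fell by 2.01, Ier5 by 1.67, the AP-1 gene Fosl2 by 1.34 and Jun by 1.04. Fos and Egr1 did not pass, at 0.27 (95% interval -0.98 to 1.52) and -0.81 (-1.83 to 0.21). Egr3 and the stress factor gene Atf3 rose by 0.70 and 0.90, with 6.68 and 6.71 in Doxo arrays, against 5.80, 5.62, 5.75 and 5.99 in untreated arrays for Atf3. Ier5 lost the call without Doxo replicate 2, while Atf3 did so without Doxo replicate 1 or 2 or untreated replicate 1, 2 or 3.

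Myc, the growth-promoting transcription factor with a short-lived mRNA, measured 5.68 and 6.39 in Doxo arrays, against 8.72, 8.16, 9.10 and 9.16 in untreated arrays. It fell by 2.75 (SE 0.32, limma, adjusted p = 1.9e-06), and its replicate-set difference was 0.08. The MXD proteins compete with Myc for their partner Max, and 3 of their genes and Mxi1 rose. Of the list of the Myc network, 4 rose and 2 fell, and 2 rose and 2 fell without Doxo replicate 2. Mxd1 had 6.36 and 6.04 in Doxo arrays, against 4.66, 4.88, 4.70 and 4.63 in untreated arrays. Mxd3 rose by 1.51, Mxd4 by 1.14 and Mxi1 by 0.97. Mga, a large partner of Max, fell by 2.43. The groups did not overlap in any of these 6 genes. Mxd3 lost the call without Doxo replicate 2, while Mxd4 did so without Doxo replicate 1 or 2.

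YAP and its DNA-binding partners of the TEAD family, together with SRF, drive genes of adhesion and the cytoskeleton. Of 14 measured targets, 7 fell and 0 rose in limma (0 at an unadjusted p under 0.05 and 0 by the t-test of the methods), and 0 rose and 6 fell without Doxo replicate 2. The median was -0.18, with a median replicate-set difference of -0.04, and of 0.007 in untreated p53-/- MEFs. Ccn2, the secreted growth factor CTGF, was at 9.07 and 9.17 in Doxo arrays, against 12.53, 11.80, 12.78 and 12.70 in untreated arrays (limma, adjusted p = 3.7e-07). Ccn1, encoding the related CYR61, was at 9.66 and 9.52 in Doxo arrays, against 11.34, 10.79, 12.00 and 11.91 in untreated arrays. Amotl2 and Lats2, which act back on YAP, fell by 1.26 and 1.85, and vinculin (Vcl) by 0.73. Acta2, the smooth-muscle actin gene, changed by 0.02 at its brightest probe set (95% interval -0.10 to 0.15), while its other probe set fell by 1.68.

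The promoters of Ankrd1 and Ccn1 are shown because both genes fell and hold the core letters bound by TEAD factors, GGAATG, which stand in capitals together with their reverse complement CATTCC. Windows and assembly are as above, on the minus strand (Ankrd1 chr19:36119795-36120094, Ccn1 chr3:145649936-145650235).
Ankrd1: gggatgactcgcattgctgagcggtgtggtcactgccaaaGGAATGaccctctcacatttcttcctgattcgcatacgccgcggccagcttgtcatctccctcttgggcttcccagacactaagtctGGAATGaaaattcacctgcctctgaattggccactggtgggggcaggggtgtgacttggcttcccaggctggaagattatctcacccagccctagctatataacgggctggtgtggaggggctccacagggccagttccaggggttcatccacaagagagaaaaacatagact
Ccn1: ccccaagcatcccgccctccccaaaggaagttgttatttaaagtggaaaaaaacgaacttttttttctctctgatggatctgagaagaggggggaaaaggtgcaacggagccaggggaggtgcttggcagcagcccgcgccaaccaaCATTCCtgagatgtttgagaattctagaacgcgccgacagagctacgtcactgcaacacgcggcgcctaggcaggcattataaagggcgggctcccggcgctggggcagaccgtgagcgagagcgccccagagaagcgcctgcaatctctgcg
Ankrd1 held 2 matches and Ccn1 held 1. GGAATG on either strand stood in 14.7% of all promoters, in 10.6% of 2203 promoters of genes that fell and in 12.7% of 3719 promoters of genes that rose.

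Growth factors and receptors fell in 8 of 20 genes and rose in 1, and 1 rose and 2 fell without Doxo replicate 2. Hbegf, an EGF-receptor ligand, gave 7.59 and 7.35 in Doxo arrays, against 10.31, 8.96, 10.71 and 10.37 in untreated arrays. Fgf7 fell by 1.86, Bdnf by 2.51 and the receptor gene Igf1r by 0.96, while Fgf10 rose by 0.45. Of 17 TGF-β and BMP targets, 3 fell and 0 rose in limma (3 at an unadjusted p under 0.05 and 1 by the t-test of the methods). Skil, a corepressor of Smads, had 6.43 and 6.43 in Doxo arrays, against 9.87, 9.44, 9.34 and 9.20 in untreated arrays, the inhibitory Smad7 fell by 1.31 and Tgfb2 by 1.57. Bdnf and Igf1r lost their calls without Doxo replicate 2, while Fgf10 did so without Doxo replicate 1. Tgfb2 lost the call without Doxo replicate 1 or 2 or untreated replicate 2 or 3.

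NF-κB, which DNA breaks can activate through ATM, switches on cytokines, adhesion molecules and its own inhibitors. Of 33 measured genes, 7 rose and 7 fell, and 2 rose and 4 fell without Doxo replicate 2, while rises numbered 4 without Doxo replicate 1 or untreated replicate 1, with a median of -0.12. Rises and falls each made up 21.2% of the list, against 27.1% and 16.0% of all genes. Secreted products were among the falls. The chemokine gene Ccl7 had 4.86 and 5.63 in Doxo arrays, against 8.56, 8.13, 8.43 and 9.02 in untreated arrays, and Ccl2 had 6.26 and 5.76 in Doxo arrays, against 8.41, 8.08, 8.96 and 8.73 in untreated arrays. Has2, a hyaluronan synthase, had 4.99 and 4.47 in Doxo arrays, against 9.27, 8.35, 7.84 and 8.34 in untreated arrays. Icam1 and the inhibitor gene Nfkbie were among the rises, whereas Nfkbiz, also of the IκB family, fell with a change of -4.19. Icam1 was at 6.67 and 6.96 in Doxo arrays, against 3.26, 4.0, 3.96 and 4.40 in untreated arrays, and Nfkbie, which encodes IκBε, at 6.24 and 6.46 in Doxo arrays, against 4.07, 4.41, 4.42 and 4.67 in untreated arrays (limma, adjusted p = 0.0053). Nfkbia, which encodes IκBα, and Il6 did not pass after adjustment, with changes of 1.17 (95% interval 0.17 to 2.17) and -1.31 (-2.65 to 0.03). Nfkbie and Ccl2 lost their calls without Doxo replicate 2.

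Of 15 interferon-response genes, 4 rose and 1 fell, close to the 27.1% of all genes for rises, and 1 rose and 0 fell without Doxo replicate 2. Without untreated replicate 1, 2 rose and 1 fell. The immunoproteasome gene Psmb8 was at 7.03 and 7.75 in Doxo arrays, against 5.40, 4.88, 5.93 and 6.63 in untreated arrays, Usp18 rose as given above, and Irf7, the amplifier of interferon production, rose by 0.76, whereas Ifit2 fell by 1.27. Usp18 lost the call without Doxo replicate 2, while Irf7 did so without Doxo replicate 2 or untreated replicate 1. Ifit2 lost the call without Doxo replicate 1 or 2, and Psmb8 lost the call without Doxo replicate 1 or 2 or untreated replicate 1 or 2. Macrophages can be carried along in MEF cultures, and their markers varied between the arrays. Of 10 measured, 1 rose (Csf1r, by 0.88) and 0 fell in limma (1 at an unadjusted p under 0.05 and 1 by the t-test of the methods). The median change was 0.88. The summed signal of the list was 11.81 and 10.96 (log2) in Doxo arrays, against 8.67, 10.75, 11.57 and 10.71 in untreated arrays. Lyz2, the macrophage lysozyme, had 11.02 and 10.10 in Doxo arrays, against 7.07, 10.06, 11.01 and 10.07 in untreated arrays, and Tyrobp had 8.86 and 7.89 in Doxo arrays, against 4.95, 6.99, 8.15 and 7.24 in untreated arrays. Untreated replicate 1 was the low array. Csf1r lost the call without Doxo replicate 1 or 2 or untreated replicate 1, 2 or 4. The part of these cells in the inflammatory and interferon values was not tested. As in any bulk sample, fewer cells of a type and less RNA per cell cannot be told apart.

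SR proteins and hnRNPs bind pre-mRNA to direct splicing, and CLK kinases phosphorylate SR proteins. Of 20 measured, 15 fell and 0 rose in limma (1 at an unadjusted p under 0.05 and 1 by the t-test of the methods), and 0 rose and 12 fell without Doxo replicate 2, with a median of -0.77 and a median replicate-set difference of -0.11. The median of the same difference in untreated p53-/- MEFs was -0.088. Srsf1 was 10.02 and 9.55 in Doxo arrays, against 11.49, 11.38, 11.29 and 11.35 in untreated arrays (limma, adjusted p = 4.9e-07). Srsf3 was 10.13 and 9.77 in Doxo arrays, against 11.23, 11.15, 11.29 and 11.32 in untreated arrays. The untreated arrays of both genes lay close together, and the Doxo arrays lay more than 1 log2 unit below. Hnrnpa2b1 fell by 1.48, Hnrnpk by 0.59 and the kinase gene Clk4 by 2.07.

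In the list of elongation and termination factors, 8 of 17 fell and 4 rose, and 4 rose and 6 fell without Doxo replicate 2. Aff4, the scaffold of the super elongation complex, had 6.19 and 5.36 in Doxo arrays, against 9.52, 9.38, 9.12 and 8.96 in untreated arrays. Ccnt2, a cyclin of the elongation kinase P-TEFb, fell by 2.73, the CDK-activating kinase gene Cdk7 by 0.82, the termination exonuclease gene Xrn2 by 1.27 and Cdk9, the kinase of P-TEFb, by 0.35. The 4 risen genes were Polr2a, which encodes the largest subunit of RNA polymerase II, at 9.73 and 9.71 in Doxo arrays, against 8.62, 8.54, 8.58 and 8.68 in untreated arrays, the elongation factor gene Supt5, by 0.61, and the P-TEFb inhibitors Hexim1 and Mepce, by 0.91 and 0.81. Hexim1 lost the call without Doxo replicate 1, while Cdk9 did so without Doxo replicate 2.

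Chromatin regulators fell in 11 of 23 genes and rose in 2, and 2 rose and 4 fell without Doxo replicate 2. Hdac2, a class I deacetylase, measured 8.52 and 7.83 in Doxo arrays, against 10.20, 10.10, 10.04 and 10.00 in untreated arrays (limma, adjusted p = 4.3e-07). The acetyltransferase gene Kat2b fell by 1.83, the methyltransferase gene Nsd1 by 1.57 and the SWI/SNF ATPase gene Smarca2 by 2.38, whereas the class IIa deacetylase gene Hdac5 rose by 1.11 and the demethylase gene Kdm2b by 0.77. Kdm2b lost the call without Doxo replicate 1.

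Genes of DNA damage signalling and repair fell in 15 of 34 cases and rose in 2, and 0 rose and 9 fell without Doxo replicate 2, with a median of -0.52 and a median replicate-set difference of 0.12. In untreated p53-/- MEFs the same difference had a median of -0.222. Usp1, the deubiquitinase of the Fanconi pathway, was at 7.79 and 7.63 in Doxo arrays, against 9.63, 9.76, 9.66 and 9.73 in untreated arrays (limma, adjusted p = 5.1e-07). Nbn, which brings ATM to breaks, was at 4.51 and 4.49 in Doxo arrays, against 7.33, 6.98, 7.16 and 6.92 in untreated arrays. The replication checkpoint kinase gene Chek1 was at 4.94 and 4.70 in Doxo arrays, against 7.13, 7.03, 6.97 and 7.17 in untreated arrays. The groups stood apart by more than 1.5 log2 units in all 3 genes. Tdp2, which removes trapped topoisomerase II from DNA ends, fell by 1.53 and Brca1 by 1.58, and Chek1 and Brca1 each had another probe set that rose, by 0.25 and 0.29. The kinase genes Atm and Atr fell by 1.55 and 1.74. Xrcc1, the scaffold of single-strand break repair, rose by 1.15 and the glycosylase gene Ogg1 by 0.53. Atm, Xrcc1 and Ogg1 lost their calls without Doxo replicate 2.

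Among 9 topoisomerases and drug efflux pumps, 3 fell and 2 rose, and 1 rose and 1 fell without Doxo replicate 2. Top1, the topoisomerase that relaxes DNA ahead of polymerases, measured 6.99 and 6.5 in Doxo arrays, against 9.65, 9.37, 8.90 and 8.80 in untreated arrays, and Top3b rose by 0.56. The efflux pump Abcg2 fell by 0.56 with overlapping groups, and Abcc5 rose by 0.51. The P-glycoprotein genes, whose product exports Doxo, did not pass, at 0.10 for Abcb1a (95% interval -0.14 to 0.34) and -0.45 for Abcb1b (-1.06 to 0.17). Top1 and Top3b lost their calls without Doxo replicate 2, while Abcg2 did so without Doxo replicate 2 or untreated replicate 3.

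Ribosomes are assembled in the nucleolus. Of 22 ribosome biogenesis genes, 6 fell and 3 rose, and 0 rose and 4 fell without Doxo replicate 2. Npm1, the nucleolar chaperone, was at 10.18 and 9.99 in Doxo arrays, against 12.02, 11.98, 11.86 and 11.78 in untreated arrays, Dkc1, the pseudouridine synthase of box H/ACA particles, fell by 1.82, Nop58 of box C/D particles by 2.88 and Wdr43 by 1.94. Utp20 fell by 0.56 with overlapping groups. Polr1c rose by 0.95, Bop1 by 0.83 and Ubtf by 0.43. Utp20, Polr1c and Bop1 lost their calls without Doxo replicate 2, while Ubtf did so without Doxo replicate 1 or 2 or untreated replicate 1 or 2.

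The respiratory chain and ATP synthase make ATP in mitochondria. Of 30 measured nuclear genes for their subunits, 16 rose and 3 fell, with a median of 0.36. The median replicate-set difference was 0.24, and 0.229 in untreated p53-/- MEFs. Cox4i1, a subunit of cytochrome c oxidase, measured 12.39 and 12.45 in Doxo arrays, against 11.90, 11.89, 11.97 and 11.95 in untreated arrays (limma, adjusted p = 5.1e-04). Uqcrq of complex III rose by 0.66 and Cox5b by 0.40. The complex I subunit Ndufs1 fell, with 7.80 and 7.47 in Doxo arrays, against 8.49, 8.63, 8.58 and 8.52 in untreated arrays, as did Uqcrb by 1.20 and Atp5j by 0.39. Cox5b and Atp5j lost their calls without Doxo replicate 2. Without Doxo replicate 2, 4 rose and 2 fell, without Doxo replicate 1, 8 rose and 4 fell, and with each array centred, 11 rose and 5 fell.

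Enzymes of cholesterol synthesis, which SREBP2 controls together, fell in 8 of 16 genes and rose in 0 in limma (0 at an unadjusted p under 0.05 and 0 by the t-test of the methods). By the t-test of the methods 4 fell, and 5 did so without Doxo replicate 1. The median was -0.91, and the median replicate-set difference -0.01, or 0.051 in untreated p53-/- MEFs. Idi1, the isomerase of isopentenyl diphosphate, was at 4.39 and 4.67 in Doxo arrays, against 8.80, 9.28, 7.41 and 7.67 in untreated arrays (limma, adjusted p = 1.3e-05). Msmo1, a sterol oxidase, was at 7.61 and 7.35 in Doxo arrays, against 9.94, 10.26, 9.36 and 9.41 in untreated arrays. Insig1, the retention factor of SREBP, fell by 2.59, Sc5d by 1.43 and Sqle, the squalene epoxidase, by 1.28. In Idi1, Msmo1, Insig1 and Sqle untreated replicates 1 and 2 were the higher pair of untreated arrays, and 11 genes of the list fell against these replicates alone, but 4 against replicates 3 and 4 alone. Srebf2 itself changed by -0.15 (95% interval -0.63 to 0.34).

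Heat-shock genes fell in 5 of 13 cases and rose in 1. Hsp90aa1, the inducible HSP90, was at 7.66 and 7.10 in Doxo arrays, against 10.98, 10.64, 10.54 and 10.09 in untreated arrays. Dnajb4 was at 6.15 and 5.40 in Doxo arrays, against 9.59, 9.10, 9.33 and 9.05 in untreated arrays, and the HSP40 gene Dnaja1 fell by 1.95. The HSP110 gene Hsph1 fell by 0.84 and Hsf2 by 0.96, while Hspb8 rose by 0.84. Of 25 stress genes downstream of PERK, IRE1, ATF6 and ATF4, 6 rose and 4 fell, and 1 rose and 2 fell without Doxo replicate 2. Without untreated replicate 1, 3 rose and 4 fell. The chaperones of the endoplasmic reticulum Hsp90b1 and Hspa5 fell by 1.88 and 0.89, with Dnajc3 by 1.0 and Xbp1 by 0.54, whereas Sesn2 and Atf5, targets of ATF4, rose by 1.26 and 0.99. Atf4 and Ddit3, which encode ATF4 and CHOP, did not pass after adjustment, with 0.03 (95% interval -0.31 to 0.37) and 0.73 (0.05 to 1.40). Hsph1, Hspb8, Dnajc3 and Atf5 lost their calls without Doxo replicate 2, while Xbp1 did so without Doxo replicate 1 or 2.

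Of 23 Nrf2 target genes of the antioxidant response, 6 rose and 1 fell, near the 27.1% of all genes that rose, and 3 rose and 0 fell without Doxo replicate 2. Hmox1, encoding heme oxygenase, had 9.05 and 8.89 in Doxo arrays, against 6.16, 7.38, 7.38 and 8.11 in untreated arrays (limma, adjusted p = 0.0038). Gstm1, a glutathione transferase, had 8.29 and 8.87 in Doxo arrays, against 5.79, 6.07, 6.60 and 7.11 in untreated arrays. Osgin1 rose by 1.15 and Pgd of the pentose phosphate pathway by 0.73, while thioredoxin (Txn1) fell by 0.29. Nqo1 changed by 1.45 (95% interval -0.03 to 2.94). Gstm1 and Txn1 lost their calls without Doxo replicate 2.

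Clock genes rose in 6 and fell in 3 of 16 cases, and 2 rose and 3 fell without Doxo replicate 2. Clock, part of the activating pair of the oscillator, was at 3.77 and 3.93 in Doxo arrays, against 7.35, 7.05, 6.87 and 6.71 in untreated arrays. The output factors TEF and DBP bind D-boxes. Tef was at 8.92 and 8.99 in Doxo arrays, against 7.10, 7.02, 7.39 and 7.52 in untreated arrays, and Dbp at 6.5 and 6.70 in Doxo arrays, against 4.20, 4.34, 4.40 and 4.63 in untreated arrays. The repressors Bhlhe40 and Nr1d2 fell by 2.21 and 1.91. In the list of hypoxia and glycolysis 5 of 21 rose and 3 fell, and 2 rose and 2 fell without Doxo replicate 2, with 3 rises without Doxo replicate 1 or untreated replicate 1 or 2. Adm, the vasodilator adrenomedullin, was at 5.58 and 5.75 in Doxo arrays, against 7.49, 8.38, 9.07 and 8.77 in untreated arrays. Hk2 and Vegfa fell by 1.81 and 1.47, and Ndrg1 and Hk1 rose by 1.85 and 0.73. Nr1d2 lost the call without Doxo replicate 1, while Vegfa did so without Doxo replicate 2.

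BCL-2 proteins set the threshold of mitochondrial cell death. Of 13 family genes that are not p53 targets of the lists above, 4 rose and 4 fell, and 1 rose and 3 fell without Doxo replicate 2. Rises and falls each made up 30.8%, against 27.1% and 16.0% of all genes, and 5 genes were not called. The risen genes, Bmf (by 1.10), Bik (by 0.50), Bak1 (by 0.77) and Bad, encode proapoptotic proteins, and among the fallen Mcl1, Bcl2 and Bcl2l2 are prosurvival. A split of the list by these roles was not tested. Mcl1, whose mRNA and protein are short-lived, was at 9.26 and 8.98 in Doxo arrays, against 10.48, 10.63, 10.33 and 10.44 in untreated arrays (limma, adjusted p = 2.1e-04). Bcl2 fell by 1.37, Bcl2l2, encoding BCL-w, by 0.89, and Bnip2 by 0.64, though 2 other probe sets of Bnip2 rose. Bad, a proapoptotic BH3-only gene, was at 9.16 and 9.34 in Doxo arrays, against 8.12, 8.13, 8.26 and 8.25 in untreated arrays. Bnip2, Bmf, Bik and Bak1 lost their calls without Doxo replicate 2, while Bcl2 did so without Doxo replicate 1. Of 21 autophagy and FoxO genes, 4 rose and 4 fell. Ulk1, the kinase that starts autophagy, was at 8.51 and 8.37 in Doxo arrays, against 6.88, 6.89, 6.74 and 6.79 in untreated arrays, and its relative Ulk2 at 5.68 and 5.55 in Doxo arrays, against 7.45, 7.43, 7.03 and 7.21 in untreated arrays. Gabarapl1 rose by 0.80, and the FoxO targets Klf9 and Cited2 fell by 2.68 and 1.86. 1 of the 5 Klf9 probe sets rose by 0.32.

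As a check of identity, fibroblast markers were bright in all 6 arrays. Vim, which encodes vimentin, was at 12.88 and 12.81 in Doxo arrays, against 13.09, 13.08, 13.02 and 12.96 in untreated arrays. Of 15 fibroblast markers 4 fell and 0 rose in limma (0 at an unadjusted p under 0.05 and 0 by the t-test of the methods), including the mesenchymal factor Prrx1, by 2.44, and Fap, by 2.50. By the t-test of the methods 2 of the markers fell, and without Doxo replicate 2 there was 1. Of 30 matrix genes 7 fell and 2 rose, and 1 rose and 3 fell without Doxo replicate 2. Postn, encoding periostin, was at 9.14 and 9.35 in Doxo arrays, against 12.11, 12.34, 11.35 and 11.43 in untreated arrays. Col8a1 fell by 2.37, Lox, which cross-links collagen, by 1.76, and Col5a2 by 0.71. Col1a2 fell by 2.52, and the gelatinase gene Mmp2 and its inhibitor Timp2 rose by 0.68 and 0.58. Col1a1 changed by -0.15 (95% interval -0.51 to 0.21). Fap, Col5a2, Col1a2 and Timp2 lost their calls without Doxo replicate 2, while Mmp2 did so without Doxo replicate 1 or untreated replicate 1. Vim lost the call without Doxo replicate 1 or 2 or untreated replicate 1, 2 or 3. Of the markers of cells that MEF cultures can also hold, 1 of 8 endothelial, 2 of 8 epithelial, 3 of 8 neuronal and 2 of 4 erythroid genes rose. Each of these counts depended on single arrays. Endothelial rises dropped to 0 without Doxo replicate 1 or untreated replicate 3. Epithelial rises dropped to 1 without Doxo replicate 1 or 2 or untreated replicate 3, and to 0 with each array centred. Neuronal rises dropped to 0 without Doxo replicate 1 or 2 or untreated replicate 2 or 3, with centring and with the array set as a random block, and to 1 without untreated replicate 1 or 4. Erythroid rises dropped to 1 without Doxo replicate 2 or untreated replicate 1, 2 or 4. Of 8 skeletal muscle markers 0 were called in limma (3 at an unadjusted p under 0.05 and 1 by the t-test of the methods upwards, and 0 at an unadjusted p under 0.05 and 0 by the t-test of the methods downwards).

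Long genes fell more often than short genes. RefSeq lengths on the genome (GRCm38.p6) were available for 16934 of 17097 genes (99.0%). Among 5377 genes with an untreated signal above 7, the median Doxo change was 0.43 for 680 genes up to 5 kb, 0.15 for 1116 genes of 10 to 20 kb, -0.22 for 1524 genes of 20 to 50 kb, -0.73 for 772 genes of 50 to 100 kb, -0.66 for 383 genes of 100 to 200 kb and -0.91 for 176 genes above 200 kb. The share that fell was 13.1% in the shortest class and 59.7% in the longest, and the share that rose was 40.7% and 4.55%. Short genes included the exceptions that fell deeply, such as Ptgs2 of 8.2 kb and Ankrd1 of 7.88 kb. Length and Doxo change were related by a Spearman rho of -0.40 across these genes, given as a description without a p. The filter used the untreated arrays that also enter the Doxo change. Without it, over 16934 genes, rho was -0.29. The medians were then 0.29 up to 5 kb, 0.01 at 50 to 100 kb and 0.03 above 200 kb. The shares that fell in these classes were 4.32%, 29.8% and 20.6%. With the filter, the replicate-set difference of untreated p66-/- MEFs was also lower for longer genes, with medians of 0.35 in the shortest and -0.28 in the longest class and a rho of -0.41. It was smaller in untreated WT MEFs, at 0.127 in the shortest and -0.087 in the longest class. After H2O2 in WT, which has arrays in both sets, the medians were 0.01 and -0.18, and rho was -0.12. The share of the length trend that belongs to the drug and the share that belongs to the array set cannot be told apart.

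**Figure D4:**
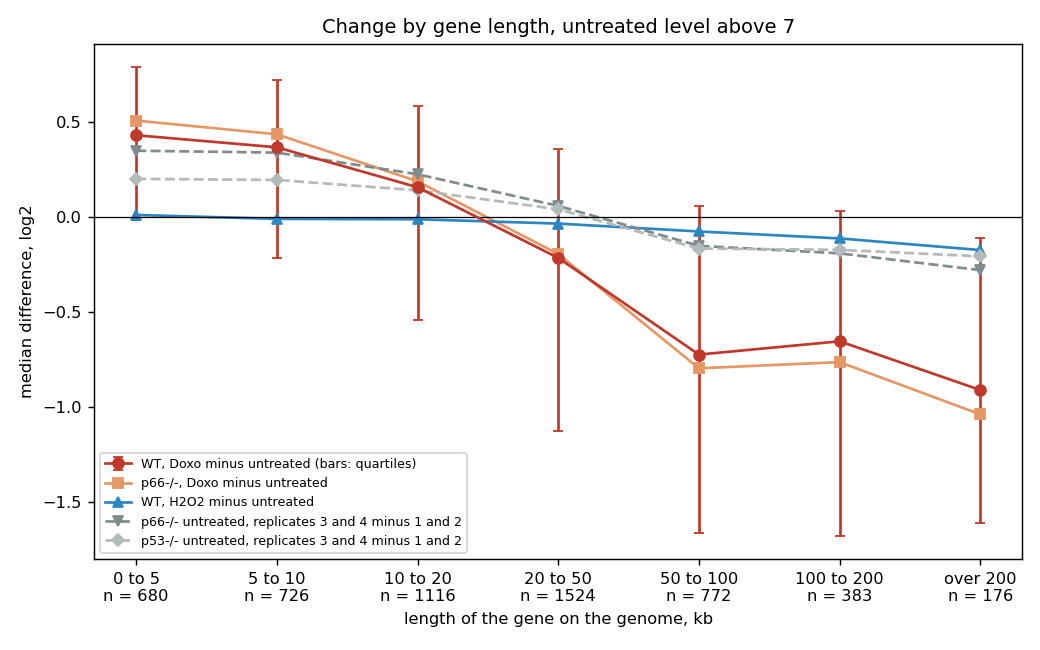
Median log2 difference (y axis) by length of the gene on the genome in kb (x axis) for 5377 genes with an untreated signal above 7, with quartiles for WT Doxo minus untreated. The Doxo medians of WT MEFs are 0.43 in the shortest and -0.91 in the longest class, those of p66-/- MEFs 0.51 and -1.04, and the replicate-set differences of untreated p66-/- MEFs 0.35 and -0.28.

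Whether the response needed p66 was tested as the difference between the Doxo changes of p66-/- and WT MEFs, in which a shift common to both Doxo groups cancels. Of 45037 probe sets, 0 were called (0%), although 1077 had an unadjusted p under 0.05 and 59 passed the thresholds of the study, and the t-test of the methods gave 0 after adjustment. Without p66-/- Doxo replicate 2 there were 2. The smallest adjusted p was 0.28 (limma). The median 95% interval, which is not adjusted for the number of tests, reached 0.44 log2 units to either side. A call needed an adjusted p under 0.05 over all 45037 probe sets, so that differences larger than this could also be missed. In p66-/- MEFs 11966 probe sets rose and 6369 fell. The difference was -0.20 (95% interval -0.97 to 0.57) for Cdkn1a, 0.16 (95% interval -0.69 to 1.01) for Bbc3, 0.56 (95% interval -0.77 to 1.89) for Bub1, -0.17 (95% interval -1.10 to 0.76) for Myc and -0.21 (95% interval -0.69 to 0.27) for Srsf1. It was wider for genes with scattered arrays, -1.16 (95% interval -3.76 to 1.43) for Ptgs2 and -1.19 (95% interval -4.16 to 1.78) for Usp18, and Hmox1 changed by 0.71 in p66-/- and 1.71 in WT MEFs, a difference of -1.01 (95% interval -2.24 to 0.23). Median changes of the lists in p66-/- and WT MEFs were -1.88 and -1.73 for ERK feedback genes, -0.85 and -0.77 for splicing factors, and 0.12 and -0.22 for G2 and mitotic genes. An interval that spans 0 does not show that the genotypes respond alike.

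**Figure D5:**
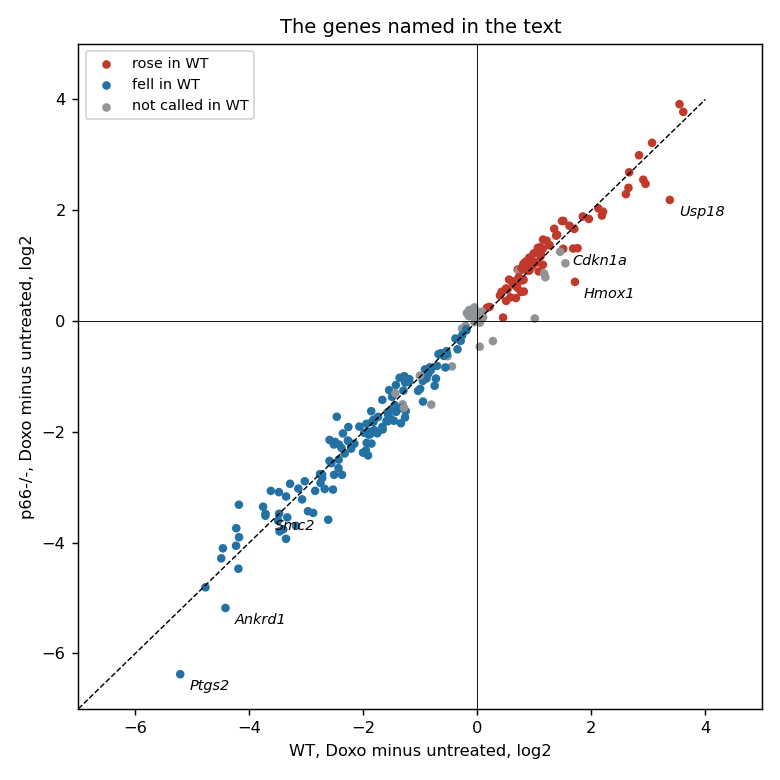
Doxo minus untreated on the log2 scale in p66-/- MEFs (y axis) against the same difference in WT MEFs (x axis) for the 237 genes named, coloured by their call in WT, with the line of equality dashed. Ptgs2 lies at -6.38 in p66-/- and -5.21 in WT MEFs, and Hmox1 is among those farthest below the line at 0.71 and 1.71. Both comparisons draw on Doxo arrays of the same array set.

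Doxo and H2O2 were compared directly between treated WT arrays, since both share the untreated arrays. Of 17097 genes, 22.9% were higher and 14.7% lower in Doxo arrays. H2O2 arrays lie in the other array sets, so that this contrast is confounded in the same way. Of the 41 p53 targets, 4 were higher and 15 lower. Rprm averaged 7.39 in Doxo arrays and 6.51 ± 0.51 in H2O2 arrays (SD over 4 arrays, difference 0.88), and Aen averaged 9.63 in Doxo arrays and 8.66 ± 0.28 in H2O2 arrays. Ccng1 averaged 9.80 in Doxo arrays and 11.40 ± 0.59 in H2O2 arrays (difference -1.60, limma, adjusted p = 0.0048), and Mdm4 averaged 5.08 in Doxo arrays and 6.77 ± 0.64 in H2O2 arrays. For Cdkn1a the means were 11.99 in Doxo arrays and 11.76 ± 0.39 in H2O2 arrays, and this difference of 0.24 did not pass (adjusted p = 0.51, limma). Atf3 stood 1.95 lower in Doxo arrays, at 6.69 in Doxo arrays and 8.64 ± 0.39 in H2O2 arrays, and Klf9 averaged 6.21 in Doxo arrays and 9.49 ± 0.94 in H2O2 arrays. Higher after Doxo than after H2O2 were Mxd3, at 8.17 in Doxo arrays and 5.47 ± 0.45 in H2O2 arrays, and Hexim1, at 8.41 in Doxo arrays and 6.13 ± 0.35 in H2O2 arrays. Adm averaged 5.66 in Doxo arrays and 5.38 ± 0.28 in H2O2 arrays and Ccn1 9.59 in Doxo arrays and 9.14 ± 0.53 in H2O2 arrays, without a call. Splicing factors were lower in 14 of 20 genes, and ERK feedback genes in 4 of 12. The number of calls depended on the fit. All arrays gave 13415 probe sets, the compared groups alone 3968, the t-test of the methods after adjustment 0, and without Doxo replicate 2 there were 5357.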

How the data were processed

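Gene expression was measured on Affymetrix MG-430 PM arrays. The authors normalised the arrays by RMA in Partek 6.5, and the deposited values are signals on the log2 scale, 1 per probe set and array. Array number limits the precision, as arrays give no read depth. Of 45141 probe sets, 104 controls were left out of the tests, which covered 45037. Platform annotation named 1 gene for 28898 probe sets, several for 551 and none for 15588, and each of 17097 genes was followed at its probe set with the highest mean.

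Groups came from the titles of the arrays. A means model of 8 groups was fitted over all 28 arrays (20 residual degrees of freedom) with limma 3.58.1 in R 4.3.3, where the methods of the study used a t-test with a 1.5-fold minimum, and p-values were adjusted by Benjamini-Hochberg over all probe sets. The fits were tested on simulated data. Named are the genes with the 10 largest rises and falls past the threshold with groups that do not overlap, up to 5 per list with the lowest adjusted p, called genes that went against their list, and members central to its role. Members and lists were chosen with earlier results of these data known. Of 789 list entries in 41 lists, 709 were measured. Of the genes named, 136 had several probe sets, and for 7 another probe set was called in the opposite direction. In further genes the other probe sets were not called. Only 1 of 4 fell for Spry4, Clock and Smc2, 1 of 3 for Aff4 and Tfrc, and 1 of 2 for Bub1, Hdac2 and Msmo1. All fell in other genes, as for Srsf1 (4 of 4), Spred1 (5 of 5) and Klf6 (3 of 3). That replicates came from separate embryo preparations is stated by the methods only. Promoters and gene lengths are from RefSeq (GRCm38.p6), 1 window of 300 bases per listed start site. Alternatives were the t-test, the compared groups alone, a filter on low signals, quantile normalisation, centring, blocks for replicate number and array set, untreated pairs, a fold threshold, 1 probe set per gene and leaving out each array. Counts of the lists under these fits were added after seeing the data.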

Additional observations from a re-analysis of the deposited data

Results flagged for a closer look

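Among 237 genes named, the 4 untreated WT arrays were searched for an array that lay far from the other 3, by the gap to its neighbour relative to the range of the group (Dixon's test). In 6 of the 237 genes an array stood apart, a lower rate than the about 1 in 20 groups that chance alone gives. Untreated replicate 4 was the high array for Psmb9, at 5.44 against 5.07 to 5.12 in the others. Untreated replicate 1 was low for Mab21l3, at 3.78 against 3.93 to 3.95, and for Fosl2, at 9.02 against 9.56 to 9.63. Untreated replicate 2 was low for Smad7, at 7.59 against 8.21 to 8.29, and for Dkc1, at 8.88 against 9.39 to 9.47. Untreated replicate 4 was low for Nop58, at 8.88 against 9.33 to 9.37. In all 6 genes both Doxo arrays lay beyond the outlying array in the direction of the call, and none of these calls was lost when a single array was left out.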

How the results depend on the processing

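With limma over all 28 arrays 9875 probe sets rose and 5877 fell, 10125 passed the thresholds of the study, and 13415 differed between Doxo and H2O2. The t-test of the methods, after adjustment, gave 0 probe sets between Doxo and H2O2, and a fit on the compared groups alone gave 3968. Centring each array left 5418 rises. Adding a 1.5-fold minimum left 3890 rises and 8218 differences from H2O2. With 1 probe set per gene there were 4914 rises, 2795 falls, 5138 past the thresholds of the study and 6843 differences from H2O2. Leaving out each array in turn gave 3635 to 8857 rises, 3486 to 5672 falls, 8355 to 10462 past the thresholds of the study and 0 to 2 differences between the p66-/- and WT responses. Doxo and H2O2 then differed in 5357 to 16577 probe sets. The low ends for Doxo in WT and against H2O2 came without Doxo replicate 2, and the high end against H2O2 without H2O2 replicate 3. The cause was not tested. Against untreated replicates 3 and 4 alone 6891 rose and 5210 fell, and with the array set as a random block 7148 rose and 5473 fell. Neither untreated pair gives a value against H2O2.

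Replicate numbers do not pair the samples. Deviations of same-numbered WT arrays of the Doxo and untreated groups correlated at 0.04 and 0.05, and those of p66-/- arrays at -0.07 and -0.08. A replicate block gave 14984 rises and 21366 differences from H2O2, and 8073 falls. For the 237 genes named, 3537 of 3787 values under 16 alternatives stayed on their side of the threshold, 231 lost the call and 19 gained it. Among values with a call in either fit, 0 changed sign. A change of sign without a call in either fit was counted as staying. The median 95% interval of the p66-/- difference limits what 2 Doxo arrays per genotype can show.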

Other observations

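Transcripts often taken as stable also moved. Of 22 cytosolic ribosomal protein genes, 3 fell and 2 rose. Rpl4 fell by 0.27, with 12.69 and 12.63 in Doxo arrays, against 12.91, 12.92, 12.92 and 12.95 in untreated arrays. Rpl23 and Rps24 fell by 0.31 and 0.20, and Rpl19 and Rps14 rose by 0.21 and 0.17. Rpl23 lost the call without Doxo replicate 2, while Rps24 did so without Doxo replicate 1 or 2. Rpl19 lost the call without Doxo replicate 2 or untreated replicate 2, and Rps14 lost the call without Doxo replicate 2 or untreated replicate 1, 2, 3 or 4. Of 7 replacement and linker histone genes, whose mRNAs are made outside S phase, H2az2 rose by 1.11 and H3f3a fell by 0.68. H2az2 and H3f3a lost their calls without Doxo replicate 2.

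Of 11 housekeeping genes used as references for qPCR, 4 fell and 1 rose. Without Doxo replicate 2, 0 rose and 1 fell, and by the t-test of the methods 1 rose and 1 fell. Without Doxo replicate 1, 0 rose and 2 fell, and without untreated replicate 1 or 2, 1 rose and 2 fell. Tfrc, the transferrin receptor, was at 7.20 and 5.68 in Doxo arrays, against 9.88, 8.86, 9.27 and 8.65 in untreated arrays, and Hprt fell by 0.53, whereas Gusb rose by 0.90. Hprt lost the call without Doxo replicate 2, while Gusb did so without Doxo replicate 1 or 2. Actb changed by 0.04 (95% interval -0.11 to 0.20) and Gapdh by 0.09 (-0.08 to 0.25). The Y-linked genes Kdm5d and Uty, chosen after their values were seen, changed by -1.29 and -1.44 without a call at their brightest probe sets. Of the 3 Kdm5d probe sets, 1 rose by 0.32. Beside them stood the fall of 3.48 for Eif2s3y, at 1 of its 2 probe sets. Eif2s3y lost the call without Doxo replicate 1 or 2 or untreated replicate 1, 2 or 3. The macrophage gene Cd68 was at 7.28 and 6.97 in Doxo arrays, against 4.74, 6.13, 6.49 and 6.38 in untreated arrays, without a call.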
